A study of Mus musculus with 3 samples.

Results

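The genes described here are the 7 that encode the collagens characteristic of cartilage, Col2a1, Col9a1, Col9a2, Col9a3, Col10a1, Col11a1 and Col11a2, taken by symbol from the deposited table of 26970 genes. All 7 were found, and all 7 averaged 1 FPKM or more across the libraries, although Col9a1 was under that value in Dspp+/-. The set was chosen by name with the FPKM ratios between these same libraries already known, so levels and ratios are given as a description. The RNA sequenced came from the mandibular condyles of mice aged 4 months, dissected with the cartilage still joined to the subchondral bone. The 3 libraries came from WT mice (+/+), from heterozygous Dspp+/- mice and from homozygous Dspp-/- mice, whose Dspp gene is knocked out in every tissue on a C57BL/6 background. The Dspp+/- mice came from crosses of Dspp-/- with wild-type mice. Each genotype has 1 library, and the tissue of 3 animals was pooled for WT and for Dspp+/-, while the number behind Dspp-/- is not given in the sources used here. The labels speak of triplicates, but the table holds 1 value per gene and genotype, so nothing was tested between genotypes and every difference below is one between single libraries.

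Collagens are helices of 3 chains in which glycine recurs in each triplet of residues. The main fibril of cartilage is built of type II collagen, the product of Col2a1, around a core of type XI collagen, which joins the chains of Col11a1 and Col11a2 with a further chain made from Col2a1. Type IX collagen, with 1 chain from each of Col9a1, Col9a2 and Col9a3, sits on the surface of that fibril and links it to other matrix. Type X collagen, a short collagen made of Col10a1 chains only, is the mark of hypertrophic chondrocytes, the enlarged cells at the border with bone. In the condyle these collagens share the tissue with type I collagen, since the condylar cartilage is a fibrocartilage.

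The helix repeat can be read in the coding sequences. In the longest coding sequence of each gene in GENCODE M21 (GRCm38), runs of at least 10 consecutive triplets that begin with a glycine codon (GGN) were counted. Col2a1, Col11a1 and Col11a2 had longest runs of 339, 338 and 338 triplets, the nearly unbroken helix of a fibril collagen. The 3 type IX genes had 5 runs each with a longest run of 113 triplets in each gene. Col10a1 had 7 runs with a longest run of 60 triplets. The first 8 triplets of the longest run, 72 bases, are shown for both type XI chains, 2 of the type IX chains and the type X chain, read 5′ to 3′, with the glycine codon of each triplet in capitals.
Col11a1, from codon 527: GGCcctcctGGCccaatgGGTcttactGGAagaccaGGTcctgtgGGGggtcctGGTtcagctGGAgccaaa
Col11a2, from codon 487: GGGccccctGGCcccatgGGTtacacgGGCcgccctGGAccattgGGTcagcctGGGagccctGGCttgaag
Col9a1, from codon 418: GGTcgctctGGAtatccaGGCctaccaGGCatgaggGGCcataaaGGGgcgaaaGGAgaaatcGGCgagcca
Col9a2, from codon 180: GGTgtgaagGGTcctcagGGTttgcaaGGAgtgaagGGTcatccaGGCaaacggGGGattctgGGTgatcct
Col10a1, from codon 302: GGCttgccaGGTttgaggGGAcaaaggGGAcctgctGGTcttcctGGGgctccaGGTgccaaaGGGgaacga
These stretches were picked by the glycine repeat, so all 5 share it by choice, while the bases between the glycine codons differ.

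RefSeq promoter windows (GRCm38.p6) were at hand for 5 of the 7 genes, with 2 start sites for Col9a1. The 250 bases before each start were searched for the TATA box letters TATAAA on the strand of the gene, for the SOX letters ACAAAG or ACAATG on both strands, and for the RUNX letters ACCACA on both strands, where the end of the RUNX letters can run into the start of the SOX letters. Of the 6 windows, 2 held the TATA letters, 1 held SOX letters and none held the RUNX letters. Among all 32817 RefSeq windows of the same length the shares were 7.60%, 25.2% and 14.0%. A match is only a match of letters. The windows of Col10a1 and Col11a2 are shown because they hold matches, in capitals, and the 2 windows of Col9a1 because this gene had the lowest level left in Dspp+/-. All 4 are on the plus strand.
Col10a1, chr10:34389731-34389980: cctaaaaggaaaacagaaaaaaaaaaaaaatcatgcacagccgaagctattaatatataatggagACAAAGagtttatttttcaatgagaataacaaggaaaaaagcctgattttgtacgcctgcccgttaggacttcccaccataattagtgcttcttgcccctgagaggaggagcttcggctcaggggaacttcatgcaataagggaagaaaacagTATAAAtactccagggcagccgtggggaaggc
Col11a2, chr17:34038888-34039137: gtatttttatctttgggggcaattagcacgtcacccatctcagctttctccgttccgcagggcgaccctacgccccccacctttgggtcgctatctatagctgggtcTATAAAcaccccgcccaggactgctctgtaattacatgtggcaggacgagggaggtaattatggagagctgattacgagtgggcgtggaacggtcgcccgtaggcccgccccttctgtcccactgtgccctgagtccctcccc
Col9a1, first start, chr1:24177360-24177609: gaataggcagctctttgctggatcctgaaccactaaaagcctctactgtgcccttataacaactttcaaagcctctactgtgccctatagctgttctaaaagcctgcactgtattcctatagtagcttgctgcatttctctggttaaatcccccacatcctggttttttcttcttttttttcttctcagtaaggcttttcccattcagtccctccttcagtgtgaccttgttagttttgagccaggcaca
Col9a1, second start, chr1:24194953-24195202: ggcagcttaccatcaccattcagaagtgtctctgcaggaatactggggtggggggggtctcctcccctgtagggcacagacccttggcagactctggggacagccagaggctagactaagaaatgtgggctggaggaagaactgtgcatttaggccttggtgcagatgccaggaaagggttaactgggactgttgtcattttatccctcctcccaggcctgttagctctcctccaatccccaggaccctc
In Col10a1 the TATA letters lie 32 to 27 bases before the start and ACAAAG lies 185 to 180 bases before it. In Col11a2 the TATA letters lie 143 to 138 bases before the start. The second start of Col9a1 gives a shorter chain, and the deposited values are per gene and do not separate the starts.

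The deposited values were read as FPKM, fragments per kilobase of exon scaled to library depth, a level that can be compared between genes because it is per length. Depth was 20241576 fragments (WT), 23613621 (Dspp+/-) and 22253158 (Dspp-/-), as recovered from the values. Mitochondrial genes held 25.0% (WT), 36.9% (Dspp+/-) and 37.3% (Dspp-/-) of summed FPKM. Xist, an RNA of female cells, stood at 2 (WT), 12084 (Dspp+/-) and 10563 (Dspp-/-) fragments. The summed fragments of 4 Y-linked genes were 4242, 2584 and 3341, which relative to depth is 52.2% of WT in Dspp+/- and 71.6% in Dspp-/-, so both kinds of transcript were present in the mutant pools. The sex makeup of the pools cannot be told apart from genotype. Dspp was not analysed here, so the genotypes were not checked against it. Intervals in brackets are 95% Clopper-Pearson intervals from fragments. They cover counting error only and not the spread between mice. In a bulk sample fewer chondrocytes and less RNA per chondrocyte cannot be told apart.

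Data showed that all 7 cartilage collagen genes were lower in Dspp+/- than in WT, and that in Dspp-/- all 7 lay between WT and Dspp+/-. A gene was called lower or higher when its log2 ratio of FPKM + 1 passed 2-fold. In Dspp+/- against WT, 7 of 7 were called lower, where 2.86% of the 13026 genes that averaged 1 FPKM or more were called lower. Their median log2 ratio of FPKM + 1 was -2.93, and that of all genes compared was 0.06. In Dspp-/- against WT, 5 of 7 were called lower, where 1.37% of all genes were, with a median of -1.30 against 0.01 for all genes. In Dspp-/- against Dspp+/-, 6 of 7 were called higher, and 0 of 7 lower, where 0.852% of all genes were higher and 0.798% lower, with a median of 1.58 against -0.04. With a pseudocount of 5 in place of 1 FPKM, 3 of 7 were higher in that comparison, where 0.276% of all genes were. The comparisons share libraries, and since the genes were chosen with these results known nothing is read from these counts. Summed over the 7 genes, FPKM was 1288 (WT), 169 (Dspp+/-) and 531 (Dspp-/-), and fragments numbered 202993, 33759 and 93161.

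**Figure D1:**
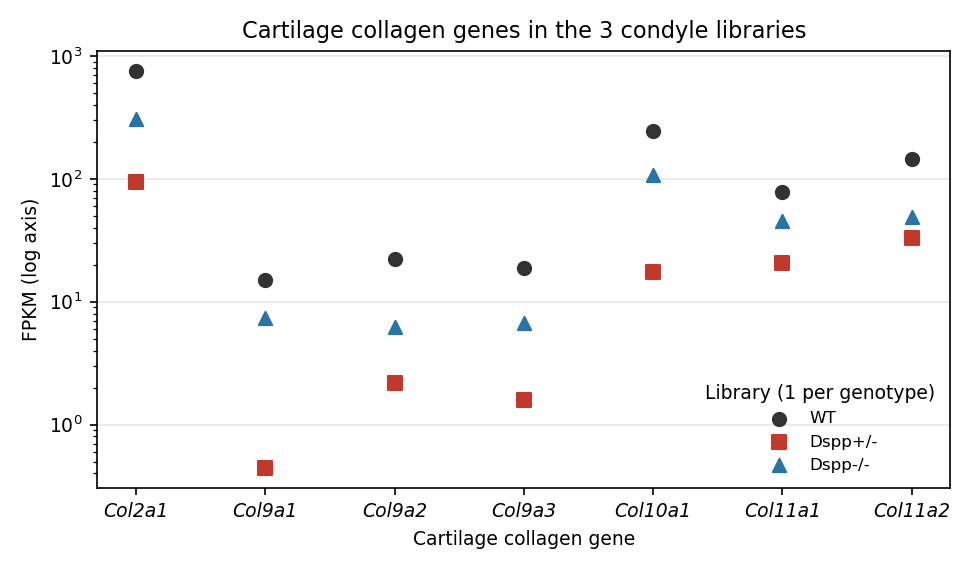
FPKM, on a log axis, of the 7 cartilage collagen genes in the WT (circles), Dspp+/- (squares) and Dspp-/- (triangles) libraries, 1 point per library. For every gene the WT point is on top and the Dspp+/- point at the bottom, from 761 and 94.2 FPKM for Col2a1 to 14.9 and 0.443 FPKM for Col9a1.

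Col2a1 (ENSMUSG00000022483), on chromosome 15 from 97873483 to 97902576 in the deposited table, encodes the chain of type II collagen. Its level was 761 FPKM (WT), 94.2 (Dspp+/-) and 308 (Dspp-/-), from 142401, 20571 and 63399 fragments. WT was the highest library and Dspp+/- the lowest. By level it ranked 30 among all genes of the table in WT, 329 in Dspp+/- and 84 in Dspp-/-. Against WT the level was 12.4% in Dspp+/-, a fold of 0.124 (0.122 to 0.126), and 40.5% in Dspp-/-, a fold of 0.405 (0.401 to 0.409). Between the mutants, Dspp-/- held 3.27 times the level of Dspp+/- (3.22 to 3.32).

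The type XI genes, whose chains form the core of the fibril, had the smallest differences from WT in Dspp+/-, but not both in Dspp-/-. Col11a1 (ENSMUSG00000027966), on chromosome 3 from 113824189 to 114014367, stood at 78.7 (WT), 20.6 (Dspp+/-) and 45.5 (Dspp-/-) FPKM. Relative to WT its fold in Dspp+/- was 0.262 (0.255 to 0.270), and in Dspp-/- it was 0.578 (0.566 to 0.591), where its log2 ratio of FPKM + 1 was -0.78 and did not pass 2-fold. Col11a2 (ENSMUSG00000024330), on chromosome 17 from 34258411 to 34285659, stood at 146 (WT), 32.9 (Dspp+/-) and 49.3 (Dspp-/-) FPKM. Dspp+/- had a fold of 0.225 (0.219 to 0.232), and Dspp-/- one of 0.337 (0.329 to 0.346). As shares of WT, the 2 genes were 22.5% and 26.2% in Dspp+/- and 33.7% and 57.8% in Dspp-/-, Col11a2 first, and their intervals do not overlap in either mutant. Between the mutants Col11a2 had the smallest difference of the 7 genes, with a log2 ratio of FPKM + 1 of 0.57 for Dspp-/- against Dspp+/- and a fold interval of 1.45 to 1.55, short of 2-fold.

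The type IX genes, whose chains decorate the fibril, were the least abundant of the 7 in every library. Col9a1 (ENSMUSG00000026147), on chromosome 1 from 24216691 to 24291765, stood at 14.9 (WT), 0.443 (Dspp+/-) and 7.39 (Dspp-/-) FPKM, from 1528, 53 and 834 fragments. Its level in Dspp+/- was 2.97% of WT, the lowest share of the 7 genes, with a fold of 0.0297 (0.0222 to 0.0391). In Dspp-/- the fold was 0.496 (0.456 to 0.541), and the log2 ratio of FPKM + 1 was -0.92, short of the 2-fold threshold. The 2 mutant libraries differed in Col9a1 by 16.7 times (12.6 to 22.5), the widest gap of the 7 genes as a plain fold and one that rests on 53 fragments. On the log2 scale of FPKM + 1 it was 2.54, against 2.57 for Col10a1, and with a pseudocount of 5 it was 1.19 against 2.34.

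Col9a2 (ENSMUSG00000028626), on chromosome 4 from 120896582 to 120912519, stood at 22.2 (WT), 2.19 (Dspp+/-) and 6.27 (Dspp-/-) FPKM. Relative to WT, Dspp+/- had a fold of 0.0985 (0.0831 to 0.116), and Dspp-/- one of 0.282 (0.253 to 0.314), the latter the lowest share of WT in that library. Col9a3 (ENSMUSG00000027570), on chromosome 2 from 180239583 to 180263982, stood at 18.8 (WT), 1.59 (Dspp+/-) and 6.75 (Dspp-/-) FPKM. For Dspp+/- the fold was 0.0849 (0.0711 to 0.101), and for Dspp-/- it was 0.360 (0.326 to 0.396). In GENCODE M21, 6.07% of its exon length overlaps Tcfl5 on the other strand, and the use of strand in counting is not given in the sources used here. For these low genes the scale matters, since on the log2 scale with 1 FPKM added Col9a1 stood at -3.46 in Dspp+/- and without it at -5.07.

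Col10a1 (ENSMUSG00000039462), on chromosome 10 from 34265977 to 34273081, encodes the type X chain of hypertrophic chondrocytes. It stood at 246 (WT), 17.3 (Dspp+/-) and 107 (Dspp-/-) FPKM, and its rank among all genes was 104 (WT), 2308 (Dspp+/-) and 257 (Dspp-/-). Dspp+/- reached a fold of 0.0702 of WT (0.0662 to 0.0743), and Dspp-/- one of 0.436 (0.425 to 0.449). In Dspp-/- it was 6.22 times as high as in Dspp+/- (5.86 to 6.61). Among the 7 genes Col10a1 thus had the next to lowest share of WT in Dspp+/- and only Col9a1 and Col11a1 had higher shares in Dspp-/-.

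**Figure D2:**
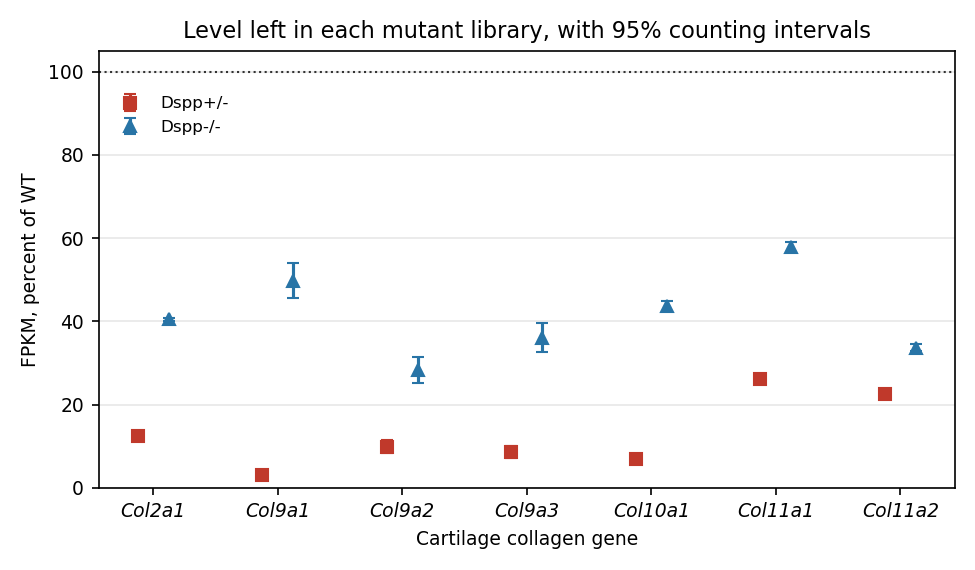
FPKM of each cartilage collagen gene as percent of the WT library (dotted line at WT), in Dspp+/- (squares) and Dspp-/- (triangles), with bars for the 95% counting interval of 1 library per genotype. In Dspp+/- the genes of types II, IX and X lie between 2.97% and 12.4% and those of type XI at 22.5% and 26.2%, while in Dspp-/- the order differs and the range is 28.2% to 57.8%.

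The plot of percent of WT shows that the order of the genes differed between the mutants. In Dspp+/- the order from the lowest share of WT was Col9a1, Col10a1, Col9a3, Col9a2, Col2a1, Col11a2 and Col11a1. The counting intervals of Col9a2 (0.0831 to 0.116) and Col9a3 (0.0711 to 0.101) overlap, and so do those of Col9a3 and Col10a1 (0.0662 to 0.0743). Overlap alone does not show whether these neighbours differ beyond counting error. In Dspp-/- the order was Col9a2, Col11a2, Col9a3, Col2a1, Col10a1, Col9a1 and Col11a1. There the intervals of Col11a2 (0.329 to 0.346) and Col9a3 (0.326 to 0.396) overlap. Col9a1 went from the lowest place in Dspp+/- to the second highest in Dspp-/-.

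Ratios within 1 library do not depend on how libraries are scaled, and were used to compare chains that meet in 1 molecule. The 3 chains of type IX collagen are joined in equal numbers. The ratio of Col9a1 to Col9a2 in FPKM was 0.670 in WT (0.623 to 0.721), 0.202 in Dspp+/- (0.145 to 0.278) and 1.18 in Dspp-/- (1.05 to 1.33), with no overlap between the 3 intervals. Col9a1 to Col9a3 went the same way, with 0.793 in WT (0.738 to 0.853), 0.278 in Dspp+/- (0.199 to 0.383) and 1.10 in Dspp-/- (0.984 to 1.22). Col9a3 to Col9a2 was 0.844 in WT (0.784 to 0.909) and 0.728 in Dspp+/- (0.577 to 0.917), intervals that overlap, and 1.08 in Dspp-/- (0.949 to 1.22). So Col9a1 left the proportion of its partners in Dspp+/-. For Col9a3 to Col9a2, overlap alone does not show whether Dspp+/- differed from WT beyond counting error. The interval of that ratio in Dspp-/- lies above that of WT. In Dspp-/- the 3 genes were nearly level, at 7.39, 6.27 and 6.75 FPKM.

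For type XI collagen the ratio of Col11a2 to Col11a1 was 1.86 in WT (1.82 to 1.89), 1.60 in Dspp+/- (1.54 to 1.66) and 1.08 in Dspp-/- (1.05 to 1.12). This ratio was lowest in Dspp-/-, unlike those of Col9a1. Col2a1 to Col11a1, main chain to core chain, was 9.68 in WT (9.53 to 9.82), 4.57 in Dspp+/- (4.44 to 4.70) and 6.78 in Dspp-/- (6.65 to 6.91). Col2a1 to Col11a2 was 5.21 in WT (5.13 to 5.29), 2.86 in Dspp+/- (2.78 to 2.95) and 6.25 in Dspp-/- (6.10 to 6.40), so that with this partner Dspp-/- was above WT. Col10a1 to Col2a1, hypertrophic to general cartilage collagen, was 0.323 in WT (0.318 to 0.328), 0.183 in Dspp+/- (0.173 to 0.194) and 0.348 in Dspp-/- (0.340 to 0.357). Of the summed FPKM of the 7 genes, type II made up 59.1% (WT), 55.7% (Dspp+/-) and 58.1% (Dspp-/-). Type XI made up 17.5%, 31.6% and 17.9% in the same order, type X 19.1%, 10.2% and 20.2%, and type IX 4.34%, 2.50% and 3.85%.

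**Figure D3:**
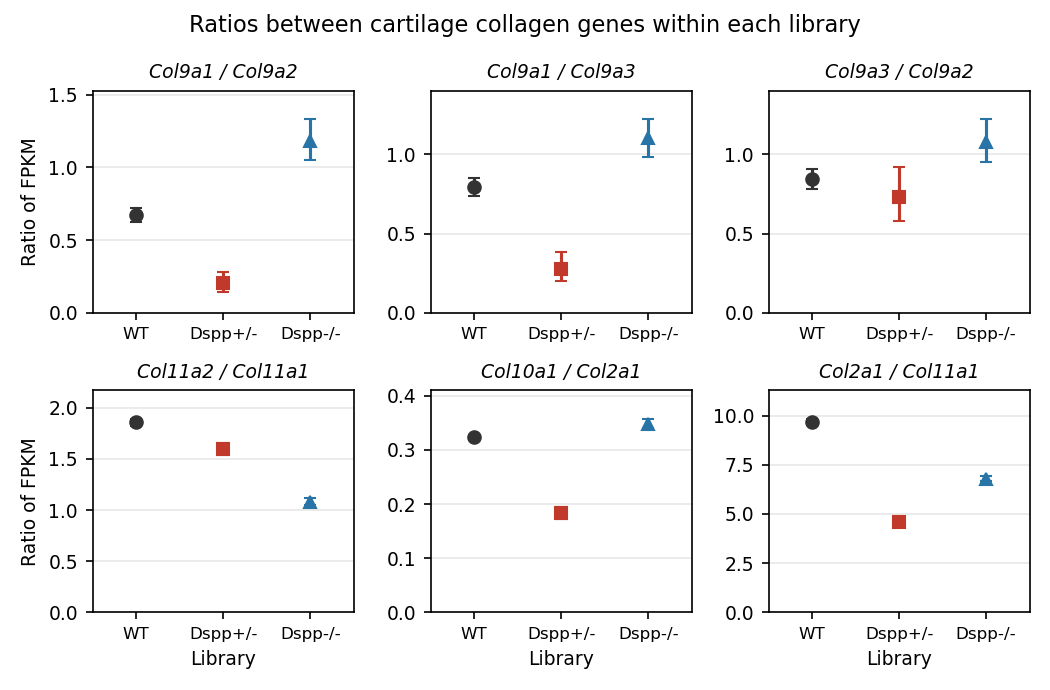
Ratios of FPKM between cartilage collagen genes within each library, 1 panel per pair, with the linear axis from 0 and bars for the 95% counting interval. Col9a1 to Col9a2 stands at 0.670 (WT), 0.202 (Dspp+/-) and 1.18 (Dspp-/-), and Col11a2 to Col11a1 at 1.86, 1.60 and 1.08.

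The order of levels also shifted. In WT it ran Col2a1, Col10a1, Col11a2, Col11a1, Col9a2, Col9a3 and Col9a1. In Dspp+/- both type XI genes stood above Col10a1, with a ratio of Col11a1 to Col10a1 of 1.20 (1.13 to 1.27). In Dspp-/- Col10a1 was again above both, and the type IX genes were in the reverse order of WT, although the intervals of the ratios between neighbours among them include 1.

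The table lists 44 collagen genes, of which 30 averaged 1 FPKM or more. The other 23 of these had a median log2 ratio of FPKM + 1 of -1.29 in Dspp+/- against WT and of -0.78 in Dspp-/-, so lower values were found across collagen genes. Of the 23, 14 were called lower in Dspp+/-, 3 in Dspp-/- and none higher in either. The shares of all genes called lower were 2.86% (Dspp+/-) and 1.37% (Dspp-/-), and higher 4.88% and 4.05%. In Dspp+/- the 6 lowest log2 ratios of all 30 belonged to cartilage collagen genes, and Col11a1 ranked ninth, above Col1a1 and Col1a2. In Dspp-/- the cartilage genes were spread, with Col9a2, Col11a2 and Col9a3 at ranks 1 to 3, Col2a1 at 5, Col10a1 at 6, Col9a1 at 12 and Col11a1 at 20. Cartilage collagens made up 10.2% of the summed FPKM of all collagen genes in WT, 5.12% in Dspp+/- and 7.80% in Dspp-/-. Type I collagen held 74.6%, 73.1% and 75.1%.

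**Figure D4:**
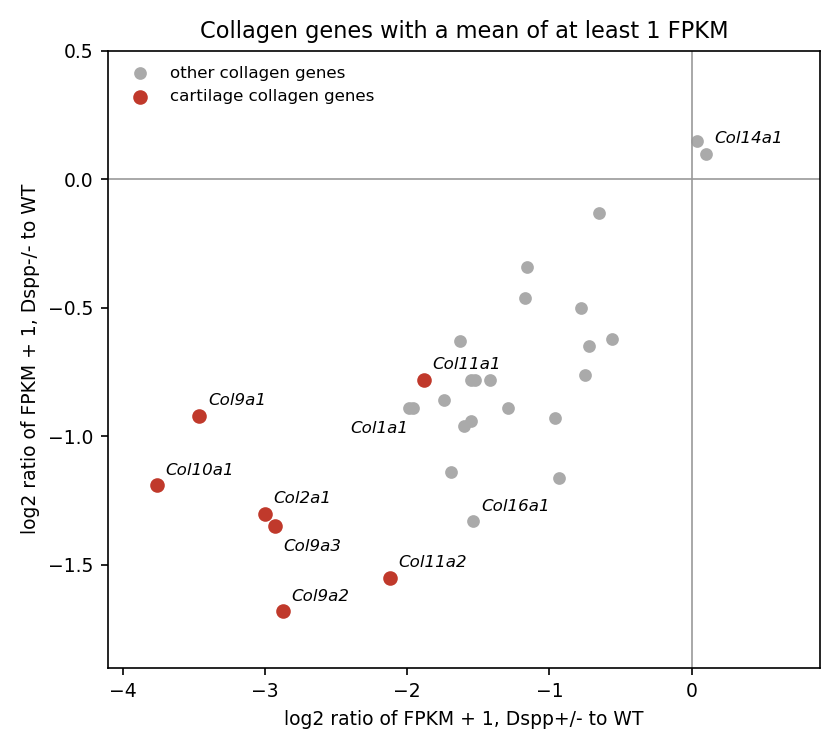
Log2 ratio of FPKM + 1 to WT in Dspp+/- (horizontal axis) and Dspp-/- (vertical axis) for the 30 collagen genes that averaged 1 FPKM or more, cartilage collagen genes in red and others in grey. Both axes use the same WT library. The red points of types II, IX and X lie furthest left, from -2.87 to -3.76, and Col11a1 at -1.88 lies among the grey points.

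Col11a1 differed from Col2a1 and Col10a1 when set against Col1a1, the main collagen gene of bone and fibrous tissue. The ratio of Col11a1 to Col1a1 was 0.0118 in WT (0.0116 to 0.0120), 0.0120 in Dspp+/- (0.0117 to 0.0123) and 0.0126 in Dspp-/- (0.0124 to 0.0128). Col2a1 to Col1a1 was 0.114 in WT (0.113 to 0.115), 0.0548 in Dspp+/- (0.0541 to 0.0556) and 0.0854 in Dspp-/- (0.0847 to 0.0861). Col10a1 to Col1a1 was 0.0368, 0.0100 and 0.0297 in the same order. Col11a2 to Col1a1 was 0.0219, 0.0192 and 0.0137, so the other type XI gene was lower in each mutant and lowest in Dspp-/-. The intervals of Col11a1 to Col1a1 overlap between WT and Dspp+/- and not between WT and Dspp-/-. Relative to Col1a1, both Col2a1 and Col10a1 were lower in each mutant than in WT, and lowest in Dspp+/-.

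The bone and connective tissue fibrillar collagens, 8 genes in all, were called lower for 7 in Dspp+/- and for none in Dspp-/-. All genes were called lower for 2.86% and 1.37%. The medians of the 8 were -1.61 and -0.88 on the log2 scale of FPKM + 1. Col1a1 stood at 6675 (WT), 1719 (Dspp+/-) and 3609.7 (Dspp-/-) FPKM. Col1a2, its partner in type I collagen, had 2779.9, 699.8 and 1496 FPKM, and Col3a1, of type III collagen, had 576, 185 and 372 FPKM. Their folds against WT in Dspp+/- were 0.257 (0.256 to 0.259), 0.252 (0.250 to 0.253) and 0.322 (0.318 to 0.325).

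The noncollagenous cartilage matrix genes varied. Of 14 in the table, 11 averaged 1 FPKM or more. Of these, 5 were called lower in Dspp+/- and 4 in Dspp-/-, none higher, with medians of -0.92 and -0.81. Among all genes 2.86% and 1.37% were called lower, and 4.88% and 4.05% higher. Chad, the gene of chondroadherin, stood at 962 (WT), 643 (Dspp+/-) and 523 (Dspp-/-) FPKM, and Comp, a matrix protein of cartilage and tendon, had 462, 312 and 227 FPKM. Both had lower values in Dspp-/- than in Dspp+/-, while the 7 collagens had higher ones. Prg4, the gene of lubricin at the joint surface, had 43.8, 73.4 and 57.2 FPKM. Acan, the gene of the large cartilage proteoglycan aggrecan, named here after its values were seen, had 84.1, 20.4 and 40.4 FPKM. The ratio of Col11a1 to Acan was 0.936 (WT), 1.01 (Dspp+/-) and 1.12 (Dspp-/-), and that of Col2a1 to Acan 9.05, 4.63 and 7.62. The 5 genes called lower in Dspp+/- were Acan, Hapln1, Scrg1, Snorc and Cnmd, also named after their values were seen. Matn1, a matrilin gene of hyaline cartilage, had 2, 0 and 3 fragments, at or under the floor of 3 fragments in every library.

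Of the chondrocyte transcription factors, 7 of 9 averaged 1 FPKM or more, and 1 was called lower in each mutant against WT, with medians of -0.63 and -0.34. That gene was Foxa2, a factor of hypertrophic chondrocytes, named after its values were seen. Sox9, the factor that drives chondrocyte collagen genes, stood at 11.1 (WT), 5.45 (Dspp+/-) and 6.90 (Dspp-/-) FPKM. Its log2 ratios of FPKM + 1 were -0.91 and -0.61 and did not pass 2-fold. Without the added 1 its fold in Dspp+/- was 0.492 (0.441 to 0.548), with 2-fold inside the interval, and in Dspp-/- 0.623 (0.562 to 0.690). The ratio of Col2a1 to Sox9 was 68.7 in WT (64.4 to 73.4), 17.3 in Dspp+/- (15.9 to 18.9) and 44.7 in Dspp-/- (41.3 to 48.4). Mef2c had 36.7, 42.5 and 43.0 FPKM and Runx2, which is active in hypertrophic chondrocytes and osteoblasts, had 17.7, 9.90 and 13.8 FPKM. Of the growth cartilage signals, 7 of 8 were compared, and 4 were called lower in Dspp+/- and 2 in Dspp-/-, with medians of -1.13 and -0.88. For both lists, the shares of all genes called lower were 2.86% (Dspp+/-) and 1.37% (Dspp-/-). Wif1, a secreted Wnt antagonist, had 234, 63.5 and 126 FPKM. Pth1r, the receptor of parathyroid hormone and its related peptide, had 164, 60.5 and 76.6 FPKM. It also stands in the osteoblast list below and is counted in both. Ptch1, the hedgehog receptor, had 18.8, 8.06 and 14.2 FPKM.

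Of the 25 collagen folding and processing enzymes, 13 were called lower in Dspp+/- and 8 in Dspp-/-, none higher, with medians of -1.03 and -0.67. Serpinh1, a chaperone of procollagen, stood at 428 (WT), 160.3 (Dspp+/-) and 196 (Dspp-/-) FPKM. P4hb, a subunit of prolyl hydroxylase, had 196, 133 and 135 FPKM, and Lox, which crosslinks collagen, had 129, 39.4 and 83.6 FPKM. None of the 7 collagen receptors passed 2-fold in either mutant. Their medians were -0.63 and -0.26. The most abundant were Itgb1, a shared integrin chain, with 174, 137 and 157 FPKM, Ddr2, a collagen receptor kinase, with 24.4, 15.1 and 20.2 FPKM, and Itga10, a chondrocyte integrin chain, with 23.3, 12.1 and 13.7 FPKM. Of 9 matrix-degrading proteinases, 7 were called lower and 1 higher in Dspp+/-, and none lower and 1 higher in Dspp-/-. Their medians were -1.15 and -0.48. The higher gene was Mmp8, a neutrophil collagenase that also stands in the neutrophil list, named after its values were seen. The 9 include the aggrecanases Adamts4 and Adamts5, which are not collagenases. In Dspp+/- Adamts4 had a log2 ratio of -1.08, among those called lower, and Adamts5 one of -0.09. Ctsk, the osteoclast protease cathepsin K, had 863, 279 and 481 FPKM, Mmp13, a collagenase of hypertrophic chondrocytes and osteoblasts, had 649, 239.9 and 487 FPKM, and Mmp9 had 552, 239 and 371 FPKM. For these lists, genes were called lower for 2.86% of all genes in Dspp+/- and 1.37% in Dspp-/-, and higher for 4.88% and 4.05%.

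Lists of markers of other cell types were set beside the cartilage collagens, against the shares of all genes called lower (2.86% in Dspp+/- and 1.37% in Dspp-/-) and higher (4.88% and 4.05%). Those of osteoblasts, erythroid cells, neutrophils and B cells had most of their compared genes called in Dspp+/-. The osteoblast list had 10 of 11 genes called lower in Dspp+/- and 5 in Dspp-/-, and its summed FPKM was 3786 (WT), 1145 (Dspp+/-) and 1946 (Dspp-/-), with Ibsp the most abundant. The erythroid list had 11 of 13 genes called higher in each mutant, with summed FPKM of 962, 3836 and 3730.0, led by Hbb-bs. The neutrophil list had 13 of 13 genes called higher in each, with sums of 649, 2926 and 3879.9, led by S100a9. The B cell list had 6 of 9 compared genes called higher in each, with sums of 27.0, 80.1 and 65.8, led by Cd79b. The endothelial list, led by Cdh5, had 0 of 8 and sums of 180.2, 202 and 192. The skeletal muscle list, led by Acta1, had 1 of 12 genes called higher and 2 lower in Dspp+/- and none in Dspp-/-, with sums of 12579, 16819 and 13703. Scaling to the sum without hemoglobin, immunoglobulin and muscle genes gave the cartilage collagens medians of -3.09 and -1.47, and the part of these cell types in their levels was not tested. Of 20 housekeeping genes, used for scaling only, 1 was called higher in each mutant against WT.

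Of the 5 other genes nearest to the cartilage collagens, 4 are given here. They were sought among 7126 genes averaging 5 FPKM or more, by the distance of their 2 log2 ratios from the medians of the 7 genes, -2.93 in Dspp+/- and -1.30 in Dspp-/-. These ratios rest on 3 libraries. The 4 were Snorc, a small chondrocyte membrane proteoglycan at a distance of 0.410, Igkv17-127, an immunoglobulin kappa variable segment at 0.617, Cthrc1 at 0.717 and Cpz at 0.794. Snorc stood at 33.8 (WT), 4.99 (Dspp+/-) and 12.0 (Dspp-/-) FPKM, or 494, 85 and 192 fragments. Igkv17-127 had 189, 31 and 55 fragments. Cthrc1 had 60.1, 10.9 and 32.5 FPKM, and Cpz had 34.6, 6.66 and 17.4 FPKM.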

How the data were processed

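Poly(A)-selected RNA of mandibular condyles was sequenced in pairs of 150 bases, with 1 library per genotype. The authors made and deposited 1 table with 1 value per gene and library, whose unit they do not name, and its values were read as FPKM, that is, normalized by the authors to gene length and library depth, since value times merged exon length in GENCODE M21 came to whole fragments once divided by a constant of its library (tolerance 0.05) for 26174 of 26652 genes in all 3 libraries, among them all 7 described here. This also gave fragments and depth, and for a gene of 1 kilobase a single fragment equals 0.0494 (WT), 0.0423 (Dspp+/-) or 0.0449 (Dspp-/-) FPKM. The submitters' processing notes list FastQC 0.11.5, HISAT2 2.1.0, StringTie 1.3.3b and DESeq 1.28.0, with no role given, and the human build hg38, while gene identifiers are those of mouse. Gene positions are those of the deposited table. None of the 7 equals its GRCm38 position, and the build is not given in the sources used here.

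Genes averaging 1 FPKM or more were compared as log2 ratios of FPKM + 1, which understates the change of low genes, with a threshold of 2-fold. Folds and ratios between genes were computed without the added 1, and their intervals are 95% Clopper-Pearson intervals from fragments. No p-value is given, as the Kruskal–Wallis test that the study states cannot take 1 value per group. For each pathway list the 3 genes with the highest mean are named, for each cell type list the highest, and 5 genes nearest in pattern, except that some items the rule would name are not reported here. The members and lists were chosen with earlier results of these data known. On data simulated for 26652 genes, Dspp+/- against WT, 100.0% of 200 planted 4-fold falls passed the threshold and 6 of 12797 unchanged genes did. The planted falls were larger than the 2-fold threshold, so this checks the computation only. It gives no rate of false calls for the real libraries, where the spread between mice is unknown. Computation used scipy 1.17.1 and pandas 2.3.3 with numpy 2.4.6 under Python 3.11.15, and plots used matplotlib 3.10.9. In all, 11 alternatives of pseudocount, filter, scaling and threshold were run.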

Additional observations from a re-analysis of the deposited data

How the results depend on the processing

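The medians of the cartilage collagens kept their sign under the 9 alternatives of pseudocount, filter and scaling. The median log2 ratio ranged from -3.29 to -1.92 in Dspp+/- against WT, from -1.47 to -1.16 in Dspp-/- against WT and from 0.98 to 1.71 in Dspp-/- against Dspp+/-. A pseudocount of 5 brought the last to 0.98, under 2-fold, since it shrinks low genes. At a 4-fold threshold 6 genes were lower in Dspp+/- and 0 in Dspp-/- against WT, where 0.184% and 0.0461% of all genes were. The count of genes higher in Dspp-/- than in Dspp+/-, whose alternatives were added after seeing the data, was 6 as reported, 3 with a pseudocount of 5 and 2 at a 4-fold threshold, and 6 otherwise. Of all genes, 0.852% were higher as reported, 0.276% with a pseudocount of 5 and 0.115% at 4-fold. In Dspp-/- Col9a1 reached 2-fold with a pseudocount of 0.1, with housekeeping scaling (-1.07) and with the sum without hemoglobin, immunoglobulin and muscle genes (-1.07). Against Dspp+/-, a pseudocount of 5 took Col9a2 (0.65), Col9a3 (0.83) and Col11a1 (0.98) under it. Housekeeping scaling moved the median of all genes to -0.19 in Dspp+/- and -0.13 in Dspp-/-, and the cartilage collagens differed from it by -2.98 and -1.33. With it, 5.74% of all genes were lower and 3.13% higher in Dspp+/-, against 2.86% and 4.88% as reported. A pseudocount of 0.1 gave 4.64% and 7.45%, one of 5 gave 1.20% and 1.42%. In Dspp-/- against WT, 1.5-fold gave 8.21% of all genes lower, and 7 of the 7 cartilage collagens. No paired analysis was possible because each genotype has 1 library. These libraries cannot show the spread between mice, and counting error is widest for Col9a1 in Dspp+/-, with 53 fragments.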

Other observations

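A pair of genes active in prehypertrophic and hypertrophic chondrocytes did not pass 2-fold between the mutants. Most genes did not, as 0.852% of all genes were higher in Dspp-/- than in Dspp+/- and 0.798% lower. Among other genes described above as active in hypertrophic chondrocytes, Col10a1 passed with a log2 ratio of 2.57. Mmp13 was just past 2-fold with 1.02, and Runx2 did not pass with 0.44. Foxa2 stood at 329 (WT), 94 (Dspp+/-) and 89 (Dspp-/-) fragments, and its level in Dspp-/- was 1.00 times that in Dspp+/- (0.743 to 1.36). Ihh, the hedgehog ligand of prehypertrophic chondrocytes, stood at 17.5 (WT), 4.77 (Dspp+/-) and 5.71 (Dspp-/-) FPKM, with log2 ratios of -1.68 and -1.47. Col10a1, in comparison, had log2 ratios of -3.76 and -1.19. For Ihh, Dspp-/- held 1.20 times the level of Dspp+/- (1.03 to 1.39). Cnmd, the gene of the cartilage protein chondromodulin, did differ between the mutants, with 259 (WT), 6 (Dspp+/-) and 81 (Dspp-/-) fragments. These genes were singled out after their values were seen, and no explanation was tested.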
